A study of Saccharomyces cerevisiae S288C with 6 samples.

Results

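The 10 genes described here encode the G1 cyclins and the regulators of Start, the point in G1 at which a budding yeast cell commits to a new division. They were taken by name from the deposited table, where all 10 had a row among its 7126, and all 10 passed the filter of a mean normalized read count of at least 5. They are the G1 cyclin genes CLN1, CLN2 and CLN3, the Pho85 cyclin genes PCL1, PCL2 and PCL9, the transcription factor genes SWI4 and SWI6, and the inhibitor genes WHI5 and SIC1. Messenger RNA had been measured in 3 libraries labelled homozygous ltv1 deletion (strain EDS615, both copies of LTV1 deleted) and 3 labelled wild type (strain EDS76). Both strains have the S288C background and were grown at 30 °C in YPD, a rich medium, and taken in mid-exponential growth, at optical densities between 0.5 and 0.6. Ltv1 helps assemble the small ribosomal subunit, and the study compared expression with and without it. Libraries were made from the 3′ ends of polyadenylated RNA. A whole culture was sampled, so a change in the share of cells in G1 and a change in the RNA of each cell cannot be told apart.

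Start is set off by Cln3, the most upstream G1 cyclin, which acts with the kinase Cdk1 (Cdc28) to free the transcription factor SBF from its inhibitor Whi5. SBF is made of Swi4, which binds DNA at sites called SCBs, and Swi6, which is also part of the related factor MBF, whose sites are called MCBs. SBF then turns on CLN1, CLN2, PCL1 and PCL2. The Cln1 and Cln2 kinases mark Sic1, the inhibitor of the S-phase cyclin kinases, for destruction. The Pcl cyclins act with another kinase, Pho85, and PCL9 is read by the factor Swi5 at the end of mitosis, as SIC1 is. Cell size at Start is known to follow growth rate and ribosome synthesis.

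The stretches below are shown because they hold SCB and MCB letters upstream of 4 of these genes, among them the cyclin pair CLN1 and CLN2, whose fold changes below had different signs. Each is the gene's own strand, 5′ to 3′, from the R64 genome of RefSeq, with matches to CNCGAAA (SCB) or ACGCGT (MCB) on either strand in capitals. The positions are chrXIV:87560-87648 for PCL1 (plus strand), chrXVI:67136-67230 for CLN2 (minus strand), chrXIII:662028-662225 for CLN1 (plus strand) and chrV:386350-386394 for SWI4 (minus strand).
PCL1: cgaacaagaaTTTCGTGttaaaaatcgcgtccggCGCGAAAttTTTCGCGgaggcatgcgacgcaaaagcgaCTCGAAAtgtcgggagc
CLN2: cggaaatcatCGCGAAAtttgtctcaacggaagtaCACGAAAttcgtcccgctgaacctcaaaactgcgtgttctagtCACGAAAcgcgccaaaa
CLN1: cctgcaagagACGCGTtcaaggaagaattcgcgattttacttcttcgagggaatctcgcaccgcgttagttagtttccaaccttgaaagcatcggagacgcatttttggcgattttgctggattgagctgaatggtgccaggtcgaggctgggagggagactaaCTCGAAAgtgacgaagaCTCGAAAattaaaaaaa
SWI4: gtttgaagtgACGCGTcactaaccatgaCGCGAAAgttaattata

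In the 800 bases before the start codon PCL1 had 4 SCB matches, CLN1 and CLN2 had 3 each, PCL2 and SWI4 had 2 each, and SIC1 had 1. That of SIC1 lies 7 to 1 bases before its start codon. The SCB match of CLN1, 792 to 786 bases before its start codon, and that of SWI4, 270 to 264 bases before its own, lie outside the stretches shown. Of 5997 protein-coding genes 29.9% had at least 1 such match in a window of that length, 5.02% at least 2 and 0.767% at least 3. MCB matches were found for CLN1 and SWI4, 1 each, and in 7.62% of all genes. None of the SCB and MCB matches of these genes overlapped. The letters ACCAGC, read by Swi5, occurred 2 times each upstream of PCL2 and PCL9 and 0 times upstream of SIC1. Of all genes 23.6% had them at least once and 3.085% at least 2 times. The PCL9 stretch with both of them lies at chrIV:137956-138025 on the plus strand, and is shown with these letters in capitals.
PCL9: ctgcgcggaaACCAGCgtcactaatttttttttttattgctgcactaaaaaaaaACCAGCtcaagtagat
These matches are descriptions of letters, and the files hold no binding data.

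**Figure D1:**
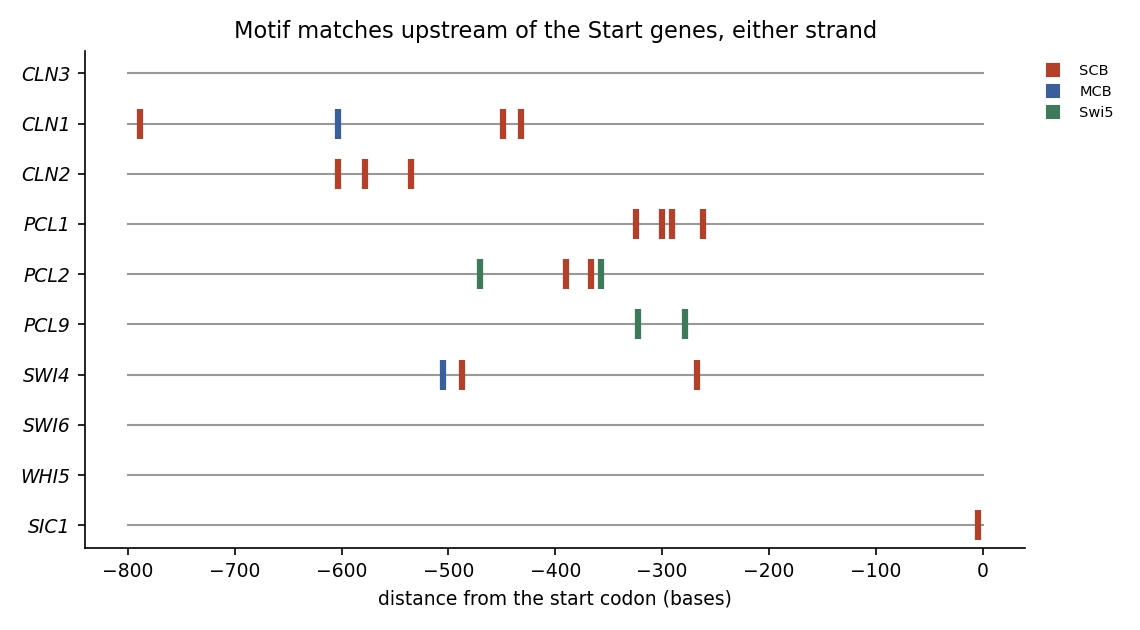
Positions of motif matches in the 800 bases upstream of each of the 10 genes, with the distance from the start codon in bases on the horizontal axis and 1 line per gene. Ticks mark SCB, MCB and Swi5 letters, and the 4 SCB matches of PCL1 lie 259 to 327 bases from its start codon.

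The libraries held between 1002573 and 1248710 reads, recovered from the deposited values, and 1 read was worth 0.914 to 1.07 normalized counts. LTV1 itself (YKL143W, chromosome XI, 176781 to 178172) did not follow the labels. It stood at 680.1, 3.22 and 6.40 normalized counts in the libraries labelled ltv1 deletion 1, 2 and 3, against 29.2, 191 and 8.77 in those labelled wild type 1, 2 and 3. The library labelled ltv1 deletion 1 thus held the most LTV1, and the library labelled wild type 3 was about as low as the low deletion libraries. The 3 deletion libraries carry the same strain label and held 647, 3 and 7 LTV1 reads. How much of the gene was deleted is not stated here. Directions below compare libraries by these labels, and values without both ltv1 deletion 1 and wild type 3 are given with the results. The first principal component of the 5663 genes tested held 59.1% of the variance. On it ltv1 deletion 1, 2 and 3 stood at -38.7, -28.5 and -35.6, and wild type 1, 2 and 3 at 59.4, 15.5 and 27.9. Wild type 1 lay furthest out, and ltv1 deletion 1 and wild type 3 lay on the side of their labelled groups. Why LTV1 departs from the labels was not tested. Nothing in the labels ties the replicates to separate cultures, and the p-values measure the spread between these samples, which may be technical.

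PCL1, the Pho85 cyclin gene of G1, rose in the libraries labelled ltv1 deletion, to 2.44-fold the wild type level, and was the 1 gene of the 10 that passed the threshold. It did not pass when any 1 library was left out, nor without both ltv1 deletion 1 and wild type 3, where 0 of the 10 passed. CLN3, CLN2 and SIC1 had higher values in every library labelled ltv1 deletion than in any labelled wild type, with log2 fold changes of 1.00, 0.79 and 0.47, but did not pass it. In CLN1, the close relative of CLN2, and in the other 5 genes the groups overlapped. With limma on log2(value + 1) and an adjusted p under 0.05 over all 5663 genes, 1 of the 10 was higher and 0 were lower, where over all genes 8.88% were higher, 6.98% lower and 15.9% either. A share of 1 in 10 is close to that background. At an unadjusted p under 0.05 limma had 4 of the 10, against 34.7% of all genes. The groups were apart, with the deletion libraries above, in 4 of the 10 and in 21.6% of all genes. The log2 fold change was above 0 in 9 of the 10, with a median of 0.44, and in 49.2% of all genes, with a median of -0.016. In edgeR's quasi-likelihood test on the recovered reads 3 of the 10 were higher (10.5% of all genes) and 0 lower (9.25%).

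**Figure D2:**
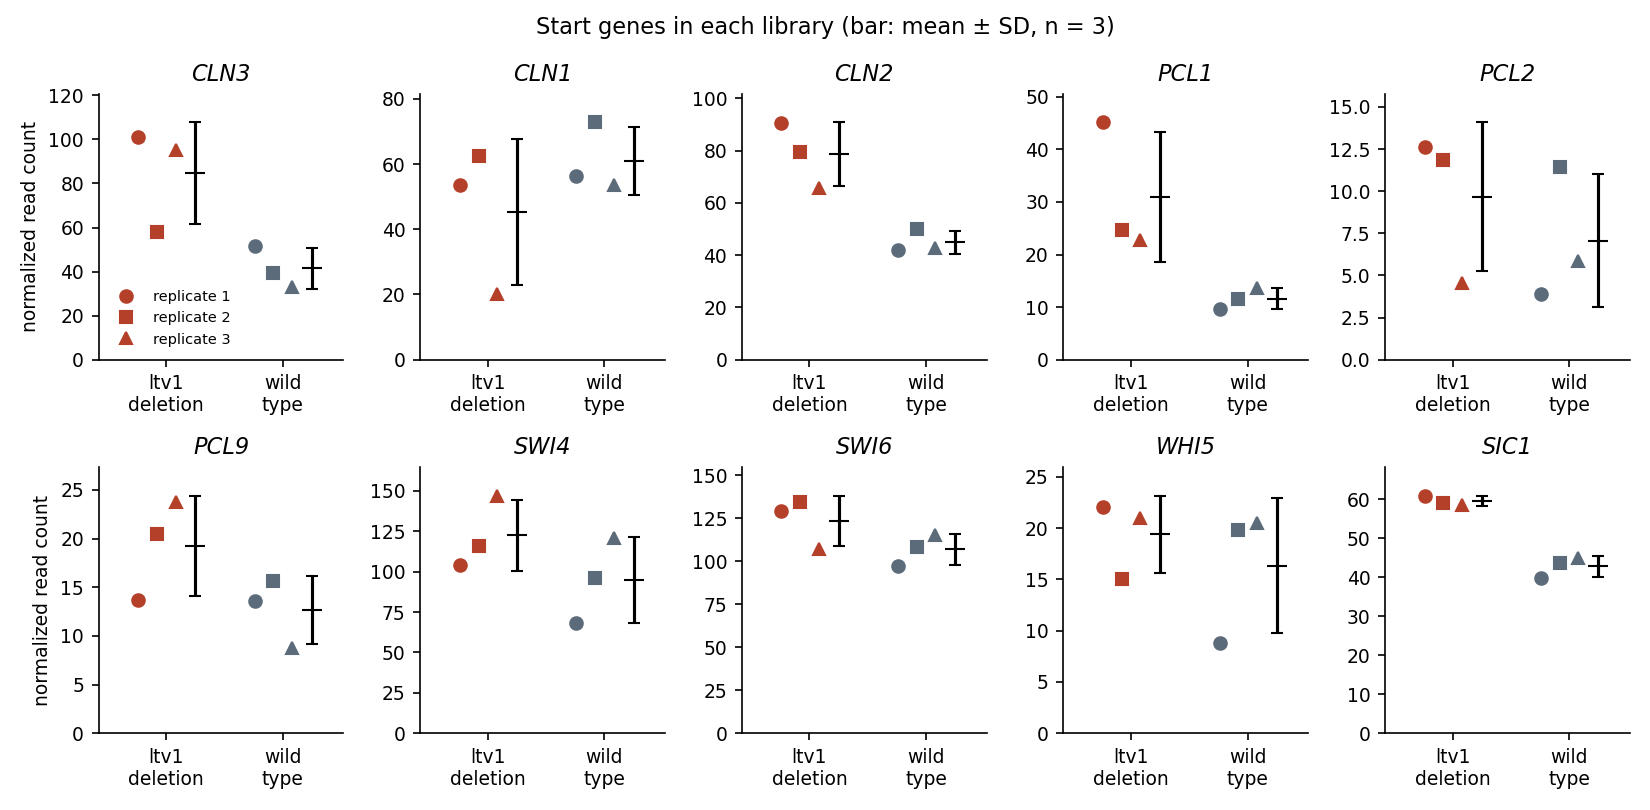
Normalized read counts of the 10 genes in each library, with 1 panel per gene, the libraries labelled ltv1 deletion on the left and those labelled wild type on the right, and the mean ± SD (n = 3) beside the points. PCL1, CLN3, CLN2 and SIC1 show 2 groups that do not overlap, while CLN1 has its lowest value, 20.1, in ltv1 deletion 3.

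CLN3 (YAL040C, chromosome I, 65778 to 67520, minus strand), the most upstream cyclin of Start, had 101, 58.0 and 95.04 normalized counts in ltv1 deletion 1, 2 and 3, against 51.5, 39.6 and 33.1 in wild type 1, 2 and 3. The groups did not overlap, although ltv1 deletion 2 lay close to wild type 1. The means were 84.7 ± 23.2 in the deletion libraries and 41.4 ± 9.32 in the wild type libraries (SD, n = 3 each). On the log2 scale the difference was 1.00 (standard error 0.30, 95% interval 0.31 to 1.69), that is 2.00-fold with bounds of 1.24 and 3.22. Limma's adjusted p of 0.0587 was above the threshold, while edgeR on recovered reads (log2 fold change 1.04, adjusted p = 0.0287) and DESeq2 (adjusted p = 0.0223) put CLN3 past it. Without both ltv1 deletion 1 and wild type 3 the log2 fold change was 0.71 (limma adjusted p = 0.284).

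CLN2 (YPL256C, chromosome XVI, 64977 to 66614, minus strand), which drives budding and S-phase entry once SBF is active, had 90.4, 79.5 and 65.8 normalized counts in ltv1 deletion 1, 2 and 3, against 41.8, 50.0 and 42.9 in wild type 1, 2 and 3. All deletion libraries lay above all wild type libraries. The means were 78.6 ± 12.3 and 44.9 ± 4.45 in the deletion and wild type libraries (SD, n = 3 each). The difference on the log2 scale was 0.79 (standard error 0.22, 95% interval 0.26 to 1.31), or 1.73-fold. Limma (adjusted p = 0.0526) and DESeq2 (adjusted p = 0.0552) left it just above the threshold, and edgeR below it (adjusted p = 0.0307). Without both of the libraries whose LTV1 was out of place CLN2 stood at 0.65 (limma adjusted p = 0.247).

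CLN1 (YMR199W, chromosome XIII, 662644 to 664284, plus strand) encodes a cyclin with the same role as Cln2. It had 53.6, 62.3 and 20.1 normalized counts in ltv1 deletion 1, 2 and 3, against 56.4, 72.9 and 53.6 in wild type 1, 2 and 3. The groups overlapped, and ltv1 deletion 3, with 22 reads, stood far below the rest. Its log2 fold change was -0.55 (standard error 0.42, 95% interval -1.54 to 0.43, limma adjusted p = 0.377). Without ltv1 deletion 3 it was -0.062, and without both ltv1 deletion 1 and wild type 3 it was -0.83 (adjusted p = 0.387). The coding sequences of CLN1 and CLN2 shared no exact run longer than 17 bases, shorter than the 84 cycles of the shortest reads. Sequence past their stop codons was not compared, although the libraries were made from 3′ ends.

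PCL1 (YNL289W, chromosome XIV, 87897 to 88736, plus strand), whose product activates Pho85 in late G1, had 45.2, 24.7 and 22.8 normalized counts in ltv1 deletion 1, 2 and 3, against 9.72, 11.5 and 13.6 in wild type 1, 2 and 3. The lowest deletion library was above the highest wild type library, and ltv1 deletion 1 was highest of all. The means were 30.9 ± 12.4 in the deletion libraries and 11.6 ± 1.97 in the wild type libraries (SD, n = 3 each). The log2 fold change was 1.29 (standard error 0.31, 95% interval 0.57 to 2.00), or 2.44-fold, with a limma adjusted p of 0.0306. It also passed in edgeR (log2 fold change 1.41, adjusted p = 0.0275) and in DESeq2 (adjusted p = 0.0212). In limma it did not pass when any 1 library was left out (adjusted p of 0.0561 to 0.0838), or without both ltv1 deletion 1 and wild type 3 (log2 fold change 1.10, adjusted p = 0.108). These values rest on 10 to 43 reads a library, and the counting error at the mean of its reads was 21.8%.

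PCL2 (YDL127W, chromosome IV, 234927 to 235853), the other Pho85 cyclin gene under SBF, was the lowest of the 10 with 4 to 12 reads a library. Its values were 12.6, 11.8 and 4.57 in ltv1 deletion 1, 2 and 3, against 3.89, 11.5 and 5.85 in wild type 1, 2 and 3. The groups overlapped and the counting error alone was 35.0% a library. Its log2 fold change of 0.41 had a 95% interval of -0.66 to 1.48 (limma adjusted p = 0.559), so that a difference as large as that of PCL1 lies within it. PCL9 (YDL179W, chromosome IV, 138291 to 139205) had 13.7, 20.4 and 23.8 normalized counts in ltv1 deletion 1, 2 and 3, against 13.6, 15.6 and 8.77 in wild type 1, 2 and 3. Only ltv1 deletion 1 fell within the wild type range. The log2 fold change was 0.57 with a 95% interval of -0.14 to 1.28 (limma adjusted p = 0.221).

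Neither gene for the SBF subunits passed the test. SWI4 (YER111C, chromosome V, 382595 to 385876), the DNA-binding subunit and itself a target of the G1 program, had 104, 116 and 147 normalized counts in ltv1 deletion 1, 2 and 3, against 68.0, 95.8 and 121 in wild type 1, 2 and 3. Its groups overlapped, its log2 fold change was 0.39 with a 95% interval of -0.27 to 1.04 (limma adjusted p = 0.357), and with 1 library left out it ranged from 0.17, without wild type 1, to 0.58, without wild type 3. Without both ltv1 deletion 1 and wild type 3 it was 0.69 (adjusted p = 0.260). SWI6 (YLR182W, chromosome XII, 517940 to 520351), the shared subunit of SBF and MBF, varied little. It had 129, 134 and 107 normalized counts in ltv1 deletion 1, 2 and 3, against 97.2, 108 and 115 in wild type 1, 2 and 3. The log2 fold change of 0.20 had a 95% interval of -0.30 to 0.70 (limma adjusted p = 0.528), which does not reach 1, a 2-fold change, on either side. TOS4, on the opposite strand, ends 191 bases past SWI6. Also on the opposite strand, CDC48 ends 303 bases past PCL2, CDC24 373 past CLN3 and YPL257W 1116 past CLN2. Whether counting used the strand is not stated here.

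Among the inhibitor genes, WHI5 had 9 to 23 reads a library and varied more than SIC1, which had 41 to 64. WHI5 (YOR083W, chromosome XV, 479533 to 480420), the repressor of SBF, had 22.1, 15.0 and 21.0 normalized counts in ltv1 deletion 1, 2 and 3, against 8.75, 19.8 and 20.5 in wild type 1, 2 and 3. The groups overlapped, with wild type 1 the lowest from 9 reads, and the log2 fold change was 0.30 (95% interval -0.52 to 1.13, limma adjusted p = 0.574) and -0.070 without wild type 1. SIC1 (YLR079W, chromosome XII, 286820 to 287674), the inhibitor that holds back S phase, had 61.0, 59.1 and 58.5 normalized counts in ltv1 deletion 1, 2 and 3, against 39.8, 43.7 and 44.8 in wild type 1, 2 and 3. The groups were apart. The replicates lay closer together than the counting error of a library, so their closeness is not read as a property of SIC1. The means were 59.5 ± 1.29 and 42.8 ± 2.62 in the deletion and wild type libraries (SD, n = 3 each), a log2 fold change of 0.47 (standard error 0.20, 95% interval 0.0052 to 0.93). It did not pass in limma (adjusted p = 0.142), edgeR (adjusted p = 0.135) or DESeq2 (adjusted p = 0.306), and stood at 0.48 in limma without both ltv1 deletion 1 and wild type 3 (adjusted p = 0.336).

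An exact two-sided permutation test of the group means of log2(value + 1) gave p = 0.1 for CLN2, CLN3, PCL1 and SIC1, the smallest value that 3 libraries against 3 allow, and 0.2 to 0.5 for the other 6 genes. In the authors' deposited table the adjusted p was 1 for each of the 10 genes, by a test whose settings are not stated here. These p-values are therefore not set against those of limma, edgeR and DESeq2 above. The log2 fold change there was 0.70 for CLN3, 0.58 for PCL1, 0.42 for CLN2 and -0.19 for CLN1, with standard errors of 0.39, 0.58, 0.39 and 0.34. DESeq2 on the recovered reads gave values further from 0, at 1.04 for CLN3, 1.41 for PCL1, 0.81 for CLN2 and -0.43 for CLN1. The table does not state a direction, but for each of the 10 genes the sign was that of ltv1 deletion minus wild type. No RefSeq gene overlaps any of the 10, and rows of the table without a RefSeq entry were not placed.

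**Figure D3:**
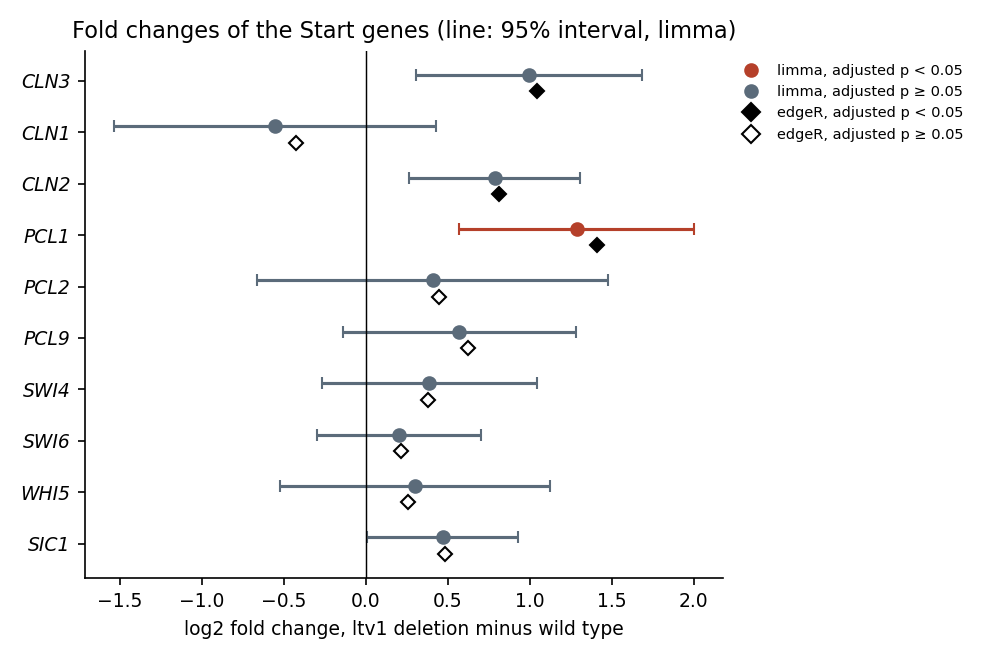
Log2 fold changes, ltv1 deletion minus wild type, of the 10 genes, with circles and 95% intervals from limma and diamonds from edgeR on recovered reads. PCL1 passed in both tests, CLN3 and CLN2 in edgeR but not in limma, and the interval of CLN1 spans 0 from -1.54 to 0.43.

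With 1 library left out the log2 fold change ranged from 0.99, without ltv1 deletion 1, to 1.46 for PCL1, from 0.85 to 1.24 for CLN3, from 0.68 to 0.91 for CLN2 and from 0.42 to 0.50 for SIC1, and none of the 10 genes passed. In these fits 180 (3.18%), 190 (3.36%) and 24 (0.424%) of all genes passed with ltv1 deletion 1, 2 and 3 left out in turn, in place of 898. With wild type 1, 2 and 3 left out in turn they numbered 584 (10.3%), 977 (17.3%) and 548 (9.68%). Without both ltv1 deletion 1 and wild type 3, 0 of the 10 genes and 16 of all genes (0.283%) passed, and 1 of the 10 had an unadjusted p under 0.05, as did 25.5% of all genes. PCL2, PCL9, SWI6 and WHI5 then had log2 fold changes of 0.12, 0.56, 0.22 and 0.40.

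**Figure D4:**
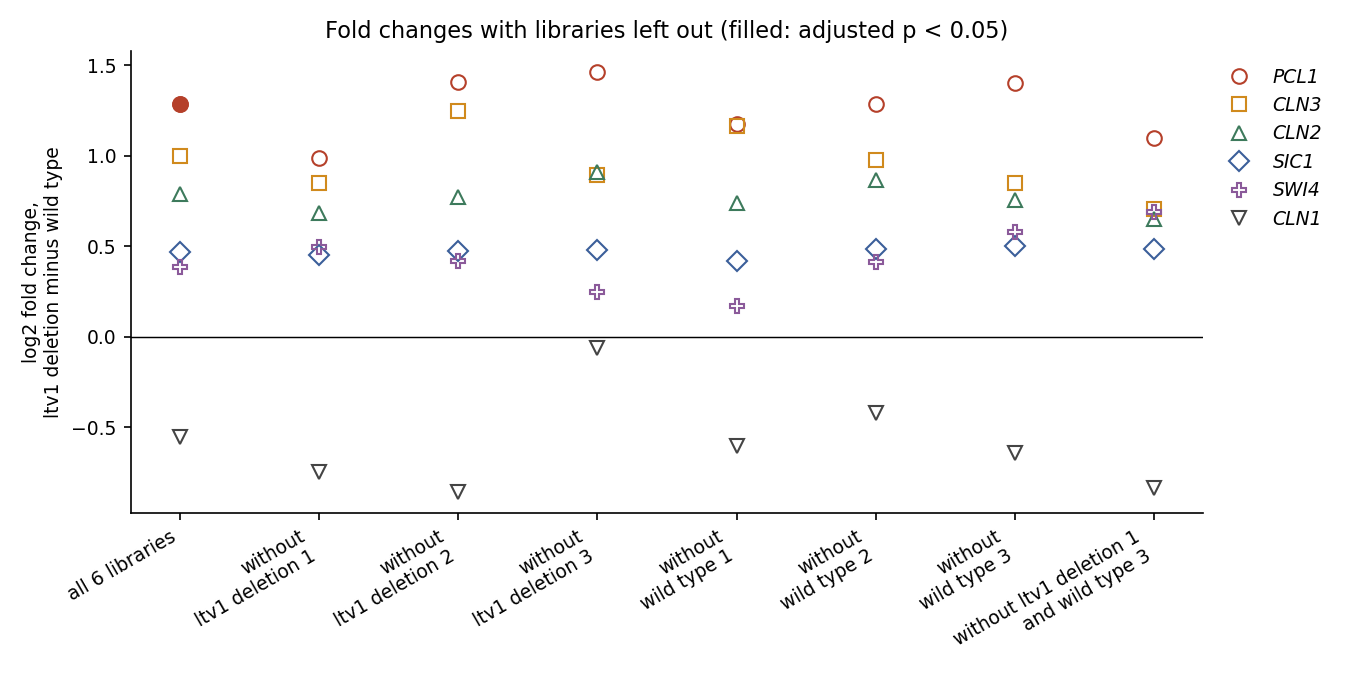
Log2 fold changes, ltv1 deletion minus wild type, of 6 of the genes from limma with all 6 libraries and with libraries left out, on a shared vertical axis, filled where the adjusted p was under 0.05. PCL1 is filled with all 6 libraries only, and CLN1 moves from -0.55 to -0.062 without ltv1 deletion 3.

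Of 37 genes that SBF and MBF turn on in the G1/S wave, members left out, 36 were tested, 1 rose and 1 fell, where 8.88% of all genes were higher and 6.98% lower. The log2 fold change was above 0 in 26 of the 36, with a median of 0.19. The deletion libraries lay wholly above the wild type libraries in 11 of them and wholly below in 2, where 21.6% of all genes were apart with the deletion libraries above and 41.6% were apart in either direction. RAD27, a flap endonuclease of DNA replication, had 276, 211 and 169 normalized counts in ltv1 deletion 1, 2 and 3, against 33.0, 76.0 and 97.5 in wild type 1, 2 and 3 (log2 fold change 1.76, limma adjusted p = 0.0297). CDC21, thymidylate synthase, had 8.41, 8.60 and 8.22 in ltv1 deletion 1, 2 and 3, against 22.4, 25.0 and 17.5 in wild type 1, 2 and 3 (-1.25, adjusted p = 0.0171). The S-phase cyclin genes CLB5 and CLB6 did not pass, at 0.43 (adjusted p = 0.220) and -0.056 (adjusted p = 0.932). Leaving out any 1 deletion library, or ltv1 deletion 1 together with wild type 3, left no gene of this list past the threshold. With both of those left out RAD27 stood at 1.89 (adjusted p = 0.101) and CDC21 at -1.39 (adjusted p = 0.0888).

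Of 16 other genes of the Start machinery, 0 passed in limma, edgeR or DESeq2, where 15.9% of all genes passed in limma. The median log2 fold change was -0.051, close to that of all genes. The most abundant of them were YDJ1, a chaperone that helps Cln3 leave the endoplasmic reticulum, at 0.38 (limma adjusted p = 0.226) and SIN3, for a subunit of histone deacetylase complexes, at -0.44 (adjusted p = 0.181). YDJ1 was higher in every deletion library than in any wild type library, and SIN3 was lower. In each direction 1 gene of the 16 was apart in this way. Over all genes 21.6% were apart with the deletion libraries above, and 41.6% in either direction. SIN3 had 264, 217 and 214 normalized counts in ltv1 deletion 1, 2 and 3, against 295, 334 and 312 in wild type 1, 2 and 3. CDC28, the kinase partner of the Cln cyclins, stood at -0.016 (adjusted p = 0.973) and MBP1, the DNA-binding subunit of MBF, at -0.086 (adjusted p = 0.855). CDC28 and MBP1 were looked up after the values were seen. Of 7 genes for the SCF ubiquitin ligases that mark the G1 cyclins and Sic1 and for ubiquitin itself, 1 fell. Over all genes 6.98% were lower. The gene of the 7 that fell was UBI4, the polyubiquitin gene, which is also a stress gene. It had 203, 156 and 231 normalized counts in ltv1 deletion 1, 2 and 3, against 652, 333 and 520.5 in wild type 1, 2 and 3 (log2 fold change -1.31, adjusted p = 0.0294). Its call ended without any 1 library other than wild type 2, and without both ltv1 deletion 1 and wild type 3 (log2 fold change -1.29, adjusted p = 0.151).

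Of 9 genes for Pho85 and its other cyclins 0 passed in limma, where 15.9% of all genes did. The log2 fold change was above 0 in 2 of the 9, with a median of -0.44, and in 49.2% of all genes, with a median of -0.016. The most abundant, PHO81 and PCL6, stood at 0.14 (adjusted p = 0.733) and -0.31 (adjusted p = 0.491). PCL5, a cyclin gene of the amino acid starvation response, was named after its values were seen. It had 7.36, 19.3 and 12.8 normalized counts in ltv1 deletion 1, 2 and 3, against 44.7, 19.8 and 43.9 in wild type 1, 2 and 3. Limma did not call it (log2 fold change -1.39, adjusted p = 0.0657) and edgeR did (adjusted p = 0.0444). Without both ltv1 deletion 1 and wild type 3 it stood at -0.88 in limma (adjusted p = 0.291). Of 9 genes for B-type cyclins and mitotic regulators 0 passed in limma, with 7 above 0 and a median of 0.60. Over all genes 15.9% passed and 49.2% were above 0. HSL1 and CDC5, the most abundant, stood at 0.11 (adjusted p = 0.740) and 0.68 (adjusted p = 0.135). CLB1, named after its values were seen, passed in edgeR (adjusted p = 0.0359) and not in limma (log2 fold change 1.14, adjusted p = 0.0520, and 0.78 with adjusted p = 0.234 without both of those libraries).

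**Figure D5:**
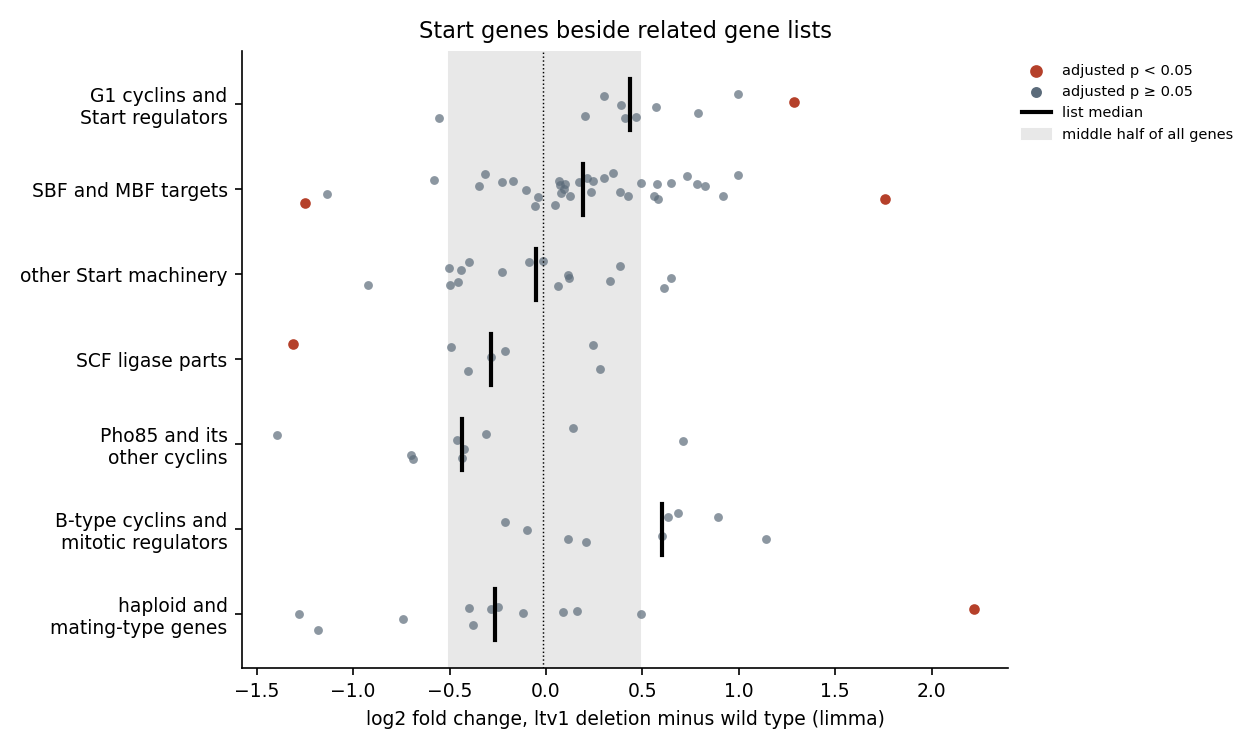
Log2 fold changes, ltv1 deletion minus wild type, of the tested genes of the 10 Start genes and 6 related lists, with 1 point per gene, filled red where the limma adjusted p was under 0.05, and a bar at each list's median. The grey band spans the middle 50% of all 5663 genes, and the median of the Start genes, 0.44, lies near its upper edge.

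Markers of mating type and of haploid cells were checked in all libraries. The labels name a homozygous deletion and do not say whether the wild type strain is diploid. The 5 markers of mating type a summed to between 50.3 and 61.0 normalized counts in the deletion libraries and between 49.7 and 76.8 in the wild type libraries, nearly all from STE2 and STE6. The 3 markers of mating type alpha summed to between 5.37 and 8.41 in the deletion libraries and between 2.92 and 3.90 in the wild type libraries. STE3 carried most of the alpha sum, with 8.41, 4.30 and 4.57 in ltv1 deletion 1, 2 and 3, against 0.97, 2.08 and 2.92 in wild type 1, 2 and 3, from 1 to 8 reads a library. MF(ALPHA)1 was at 0 in the 3 deletion libraries and in wild type 3, and MF(ALPHA)2 at 0 in 3 of the 6 libraries. The 10 haploid-specific markers summed to between 71.3 and 107 in the deletion libraries and between 120 and 193 in the wild type libraries. Their part in the results above was not tested. In the list of 23 mating-type and haploid-specific genes 12 were tested. In limma 1 rose and 0 fell, where 8.88% of all genes were higher and 6.98% lower. The log2 fold change was above 0 in 4 of the 12, with a median of -0.27, and in 49.2% of all genes. EdgeR called 1 of them higher and 1 lower, where over all genes it called 10.5% higher and 9.25% lower. The gene that rose in limma was the DNA repair gene NEJ1 (log2 fold change 2.22, limma adjusted p = 0.0414). It had values of 9.46, 10.7 and 15.5 in ltv1 deletion 1, 2 and 3, against 2.92, 4.17 and 0 in wild type 1, 2 and 3. It did not pass without wild type 1, without any 1 of the deletion libraries, or without both ltv1 deletion 1 and wild type 3 (log2 fold change 1.63, adjusted p = 0.0888). Nor did it pass with a pseudocount of 0.5 (adjusted p = 0.0642) or with no filter on low values (adjusted p = 0.0623).

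Among 4684 genes with a mean of at least 20, the 10 Start genes left out, those most like a Start gene over the 6 libraries were found by Pearson's r of log2(value + 1). These r values describe 6 points that share the split between labels. For PCL1 they were ECM25 and KIN2 (r of 0.99 each), for CLN2 LOT5 and NOP1 (0.99 each) and for CLN3 IRC7 and RLM1 (0.98 each). For SIC1 they were NSA2 and CCT2 (0.999 and 0.997), and for SWI4 INO4 (0.99) and MCX1 (0.98).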

How the data were processed

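The submitters' processing notes name STAR and Salmon beside FastQC and Trim Galore, then R 4.1.3 with DESeq2 1.34.0, and build R64. Settings, strand and the use of molecular identifiers are not stated here. The authors deposited, per gene and library, a normalized signal, which was counts divided by 1 size factor per library, since each library's nonzero values (100%) came to whole reads, within 0.01. They also deposited a log2 fold change, its standard error as a score, and p-values. Binomial intervals and the counting errors given cover counting error only, while limma's intervals come from the spread between libraries.

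The design named limma on log2(value + 1) for such values, with a mean of at least 5, no trend, no robust option and no block (limma 3.58.1, R 4.3.3). Benjamini-Hochberg adjustment ran over 5663 genes with a threshold of 0.05. This scale understates the change of low genes. Counts were recovered as whole reads for edgeR 4.0.16, which called 1121 genes, and DESeq2 1.42.0. Other scalings, pseudocounts, filters, the replicate block and leaving out libraries were alternatives.

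The members and lists were chosen with earlier results of these data known. Genes were named by rule: the 10 members, LTV1, up to 4 genes past the threshold with the smallest adjusted p in each list or otherwise the 2 most abundant, and the 2 genes most like each of CLN3, CLN2, PCL1, SWI4 and SIC1. Named beyond this rule after their values were seen were CLB5, CLB6, CDC28, MBP1, PCL5, CLB1 and the single markers. Some genes of these lists and 1 further list are not reported here, and list counts and medians are over the genes that remain. Motifs were searched in the RefSeq R64 genome on both strands.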

Additional observations from a re-analysis of the deposited data

How the results depend on the processing

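The number of these 10 genes past the threshold, 1 in limma, was 2 with quantile scaling and with DESeq2. Of all 5663 genes tested 881 and 1207 passed there, in place of 898. The number was 3 with a pseudocount of 5, with limma's trend and robust options and with edgeR. There 1052, 1126 and 1121 of the 5663 passed. With a mean of at least 20, 3 of the 7 genes still tested passed, as did 993 of all 4691. The number was 0 without any 1 library, where the range was 0 to 0. It was also 0 without both ltv1 deletion 1 and wild type 3. The labels do not say whether a replicate number marks a shared day or culture. The correlations of same-numbered deviations from the group means were -0.11, -0.20 and 0.072. With 3 libraries per group they cannot decide whether the numbers pair the libraries. In the limma fit with the replicate number as a block 0 of the 10 passed, with PCL1 at an adjusted p of 0.0805. Of all genes 430 passed in it, 279 higher and 151 lower, in place of 898, 503 and 395. With 1 library left out all genes past the threshold ranged from 24 to 977, those higher from 10 to 530 and those lower from 14 to 447. Without both ltv1 deletion 1 and wild type 3 they numbered 16, 12 and 4. WHI5 ranged from -0.070, without wild type 1, to 0.50, without wild type 3. LTV1 changed sign in edgeR (1.59), in DESeq2 (1.59) and without wild type 2 (0.69), ltv1 deletion 2 (0.89) or ltv1 deletion 3 (0.48). It ranged from -2.78 to 0.89 with 1 library left out and stood at -3.77 without both of those named above. The cause of these changes was not tested. The edgeR and DESeq2 fits held all 6 libraries, while the fits with libraries left out held fewer. The other 9 genes kept their sign in all the alternatives run. Depth limits PCL2, PCL9, WHI5 and PCL1, with counting errors of 35.0%, 25.0%, 23.7% and 21.8% a library.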

Other observations

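The balance between the paired cyclin genes CLN2 and CLN1, chosen for description after their values were seen, can be read within each library without any scaling. Of the reads of both genes together, CLN2 held 62.8%, 56.1% and 76.6% in ltv1 deletion 1, 2 and 3, against 42.6%, 40.7% and 44.4% in wild type 1, 2 and 3. The exact Clopper-Pearson 95% intervals were 54.1% to 70.9%, 47.2% to 64.7% and 66.7% to 84.7% in ltv1 deletion 1, 2 and 3, and 32.8% to 52.8%, 31.7% to 50.1% and 34.5% to 54.8% in wild type 1, 2 and 3. CLN2 was thus the larger of the pair in each library labelled ltv1 deletion and the smaller in each labelled wild type. The interval of ltv1 deletion 1 overlapped that of wild type 3, and the interval of ltv1 deletion 2 overlapped those of all 3 wild type libraries. Without ltv1 deletion 1 and wild type 3 the shares were 56.1% and 76.6% in ltv1 deletion 2 and 3, against 42.6% and 40.7% in wild type 1 and 2. The log2 ratio of CLN2 to CLN1 reads averaged 0.94 ± 0.70 in the deletion libraries and -0.43 ± 0.11 in the wild type libraries (SD, n = 3 each). No test is given, since the pair was chosen for this split.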
